A study of Rattus norvegicus with 6 samples.

Results

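Wnt ligands, their receptors and their secreted inhibitors were examined in the pulmonary veins (PVs) of neonatal rats with pulmonary vein stenosis. The members were the genes whose symbol begins with Wnt, Fzd, Sfrp, Dkk or Rspo followed directly by a digit, together with Frzb, Wif1, Lrp5, Lrp6, Axin2, Lef1, Nkd1, Nkd2, Notum and Ror2. Of the 17833 genes of the table, 48 met this rule with a mean FPKM above 0. They comprised 16 Wnt ligands, 4 R-spondins, 10 Frizzled receptors, 3 co-receptors, 11 secreted inhibitors and 4 feedback or target genes.

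Bulk RNA-seq libraries came from 3 banded rats (BPVB group) and 3 rats of the sham group, all wild type Sprague-Dawley (SD) pups operated at postnatal day 1. PVs of the right upper lobe were collected at postnatal day 21. Sham rats were operated under hypothermia in the same way but were not banded. Expression was measured as FPKM (fragments per kilobase of gene length, scaled to the mapped total of the library), a level corrected for gene length and library size.

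Wnt proteins are secreted lipid-modified ligands that bind Frizzled receptors on the cell surface. With the co-receptors LRP5 or LRP6 this binding stabilizes beta-catenin, which enters the nucleus and drives target genes with T-cell factor/LEF proteins, whereas other Wnt proteins act through Frizzled or ROR receptors without beta-catenin. Secreted Frizzled-related proteins (SFRPs) and WIF1 bind Wnt proteins outside the cell, most Dickkopf (DKK) proteins block LRP5 and LRP6, and R-spondins raise the number of Frizzled receptors on the membrane. The pathway patterns the developing lung and its vessels and is active in fibroblasts and smooth muscle cells of injured vessels.

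The markers of the labelled tissue were abundant in every library, with a summed FPKM of 4670 to 5100 for 7 smooth muscle genes and 14500 to 19500 for 8 atrial cardiomyocyte genes, the muscle of the PV sleeve. The groups also differed in genes of other cell types. The 9 alveolar type 2 markers summed to 558 to 603 FPKM in the BPVB group and 65.5 to 67.4 in the sham group, and 6 macrophage markers, all called higher, to 673 to 694 against 222 to 232. The sum of 6 proliferation genes, all called higher, was 37.1 to 38.3 against 14 to 16.3. Of the 7 smooth muscle markers 4 were lower and 1 was higher. The 8 atrial cardiomyocyte markers summed to 14500 to 14900 in the BPVB group and 19100 to 19500 in the sham group, with 6 genes lower and 2 higher. The libraries held 23439506 to 29725808 fragments, and the mean of the BPVB libraries was 1.161 times that of the sham libraries. In bulk samples, fewer cells of a type and less RNA per cell cannot be told apart.

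Of the 48 members, 41 reached a mean FPKM of 0.1 and were tested with all genes in 1 limma fit of log2(FPKM + 0.5), in which a gene was called at an adjusted p under 0.05. In the BPVB group 21 members were higher and 3 were lower, and 17 were not called. Thus 58.5% of the tested members were called, where 31.5% of the 15150 tested genes were called. The share called higher was 51.2% of the members and 17.2% of all tested genes, and the share called lower was 7.32% against 14.3%. Wnt7a, Wnt3a and Wnt4 reached the minimum only through the BPVB group and Rspo4 only through the sham group, so that the direction of these 4 was set by the minimum. The other 37 tested members comprised 18 higher and 3 lower members. When every gene above 0 was tested, 20 of the 48 members were higher (41.7%, against 14.1% of all genes) and 4 were lower (8.33% against 11.5%), with a median of 0.23. At the minimum of 0.1 the median log2 fold change was 0.34 over the 41 members, 0.29 over the 37 and 0.025 over all tested genes. The lowest BPVB library lay above the highest sham library for 24 members and the reverse held for 6, which is 73.2% of the members against 45.6% of all tested genes. The 24 include Wnt3a, Wnt4 and Wnt7a and the 6 include Rspo4, the members whose direction was set by the minimum.

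Differentially expressed genes (DEGs) also had an absolute log2 fold change above 1. The members contained 5 DEGs, namely Frzb, Sfrp2, Sfrp4 and Wnt7a with higher levels and Sfrp5 with a lower level, which is 12.2% of the tested members and 3.27% of all tested genes (2.24% higher and 1.03% lower). Wnt7a was tested only through its BPVB level. When every gene above 0 was tested, the same 5 were DEGs, with 8.33% of the members higher (1.9% of all genes) and 2.08% lower (0.847%). Of the 5 DEGs, 4 belong to the SFRP family of secreted inhibitors. The levels of every member in every library are shown in the plot of FPKM by role.

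**Figure D1:**
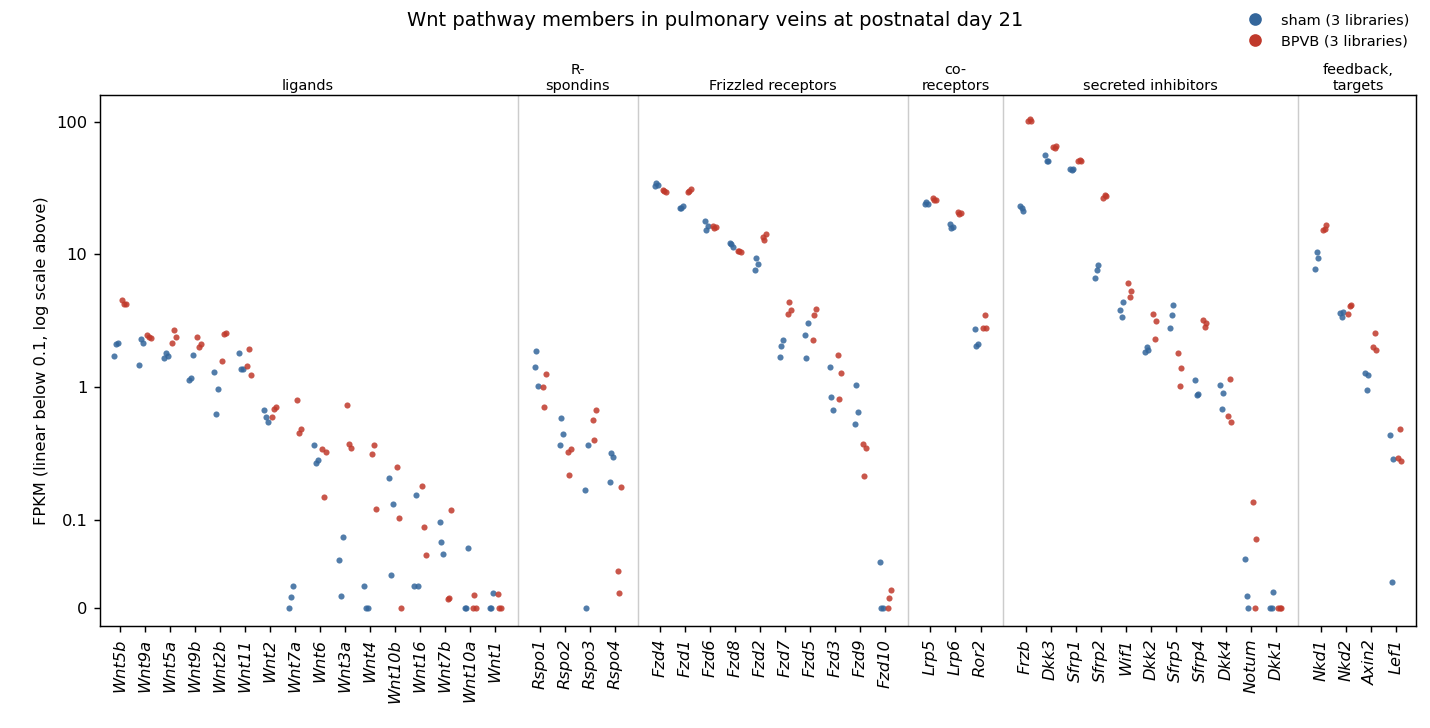
FPKM (vertical axis, linear below 0.1 and on a log scale above) of the 48 members in the 3 sham libraries (blue) and the 3 BPVB libraries (red), 1 point per library, grouped by role. The secreted inhibitors hold the highest levels, and Frzb lies at 101 to 105 in BPVB rats, compared with at 21.2 to 23.3 in sham rats.

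Wnt ligands were expressed at low levels. Their summed FPKM was 17.8, 18 and 17.1 in BPVB rats, compared with 10.6, 10.5 and 11.3 in sham rats. The BPVB libraries were thus all above the sham libraries, with means of 17.7 ± 0.49 and 10.8 ± 0.44 (SD, n = 3 each), a ratio of 1.63. Of the 16 ligands, 12 were tested. Of these, 7 were higher (58.3%, against 17.2% of all tested genes), 0 were lower (14.3% of all) and 5 were not called. The median log2 fold change of the 12 was 0.47. Without the 3 ligands that were tested only through their BPVB level, 4 of 9 were higher, with a median of 0.24. When every gene above 0 was tested, 7 of the 16 ligands were higher (43.8%, against 14.1% of all genes) and 0 lower, with a median of 0.18. Of the 12, 10 had a positive log2 fold change, as did 8175 of the 15150 tested genes. The 10 include Wnt7a, Wnt3a and Wnt4, whose direction was set by the minimum. The log2 fold changes of Wnt11 (0.01) and Wnt2 (0.08) became -0.10 and -0.03 after quantile normalization.

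Wnt5b, a ligand that mostly acts without beta-catenin, had the smallest adjusted p of the ligands. Its FPKM was 4.51, 4.24 and 4.27 in BPVB rats, compared with 1.72, 2.13 and 2.15 in sham rats, so the groups did not overlap. The level rose 2.17 times, with a log2 fold change of 0.96 (SE 0.11, adjusted p = 2.0e-04), and Wnt5b made up 24.6% ± 0.95 of the summed ligand FPKM in the BPVB group and 18.5% ± 2 in the sham group (SD, n = 3). It overlaps Fbxl14 in the RefSeq annotation, and Fbxl14 had a log2 fold change of -0.02. In the sham group Wnt5b (2 ± 0.24 FPKM) was followed by Wnt9a (1.98 ± 0.43), Wnt5a (1.72 ± 0.076) and Wnt11 (1.51 ± 0.26), levels that lay within the spread of their neighbours. In the BPVB group Wnt5b (4.34 ± 0.15) stood clear of the next ligands, Wnt5a (2.43 ± 0.27) and Wnt9a (2.4 ± 0.068).

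Wnt7a, a ligand of epithelial cells that signals through beta-catenin, was close to the limit of detection in the sham group. Its FPKM was 0.798, 0.455 and 0.481 in BPVB rats, compared with 0, 0.013 and 0.0255 in sham rats. These values stood for 70, 39 and 47 fragments against 0, 1 and 2, with no overlap between the groups. The log2 fold change was 1.06 (SE 0.16, adjusted p = 0.0012), a value that the pseudocount of 0.5 FPKM reduces for a gene this low. Its sham mean of 0.0128 FPKM was under the minimum for testing, which Wnt7a passed through its BPVB mean of 0.578. The adjusted p was 0.0011 when every gene above 0 was tested. Per fragment sequenced, the ratio of the group totals was 44.8, with an exact 95% interval of 15 to 219 that covers counting error only. The BPVB library with the highest level weighed on the size of the change, since the log2 fold change was 0.92 without BPVB replicate 1 (adjusted p = 0.0042). Wnt7a stayed called but was not a DEG in that case, nor with a pseudocount of 1 (0.63) or after quantile normalization (0.99).

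Wnt3a and Wnt4, both ligands that can signal through beta-catenin, were in the same range. Wnt3a had 61, 30 and 32 fragments in BPVB rats, compared with 4, 1 and 6 in sham rats, and Wnt4 had 14, 16 and 6 against 1, 0 and 0. For both genes every BPVB library exceeded every sham library. The log2 fold change was 0.82 for Wnt3a (adjusted p = 0.0083) and 0.58 for Wnt4 (adjusted p = 0.029). These genes too passed the minimum through the BPVB group, with sham means of 0.0497 and 0.00836 FPKM, and the adjusted p was 0.0082 and 0.016 when every gene above 0 was tested. The fragment ratios were 9.63 (5.2 to 19.8) and 31 (5.22 to 1260, exact 95% intervals for counting error). Wnt4 was no longer called without BPVB replicate 1 or without any of the 3 sham replicates, at an adjusted p of 0.064 to 0.087, and without BPVB replicate 2 it fell under the level required for testing.

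These 3 low ligands stood beside epithelial markers that moved in the same direction. Of the 9 alveolar type 2 markers 8 were higher and 0 lower, and their summed FPKM was 8.77 times the sham level. Of the 7 alveolar type 1 markers 6 were higher and Hopx was lower (summed FPKM 207 to 217 against 130 to 132). Hopx (70.9 FPKM) and Clic5 (44.8) held most of the sham sum. Ager, Aqp5, Rtkn2, Pdpn and Cldn18 were at 4.58 to 10.6 times the sham level. Of the 6 airway markers 4 (Scgb3a2, Foxj1, Ccdc153 and Cyp2f4) were at or near 0 in both groups, Scgb1a1 was higher at 25.4 against 4.07 FPKM, and Tppp3 was lower at 85.3 against 135. The summed FPKM of the airway list was lower in the BPVB group (105 to 118 against 136 to 143). This lower sum came from Tppp3, the only airway marker called lower. The part of these markers in the ligand levels was not tested. Without Wnt7a, Wnt3a and Wnt4 the summed ligand FPKM was 16 to 16.8 in BPVB rats, compared with 10.5 to 11.2 in sham rats, a ratio of 1.52.

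**Figure D2:**
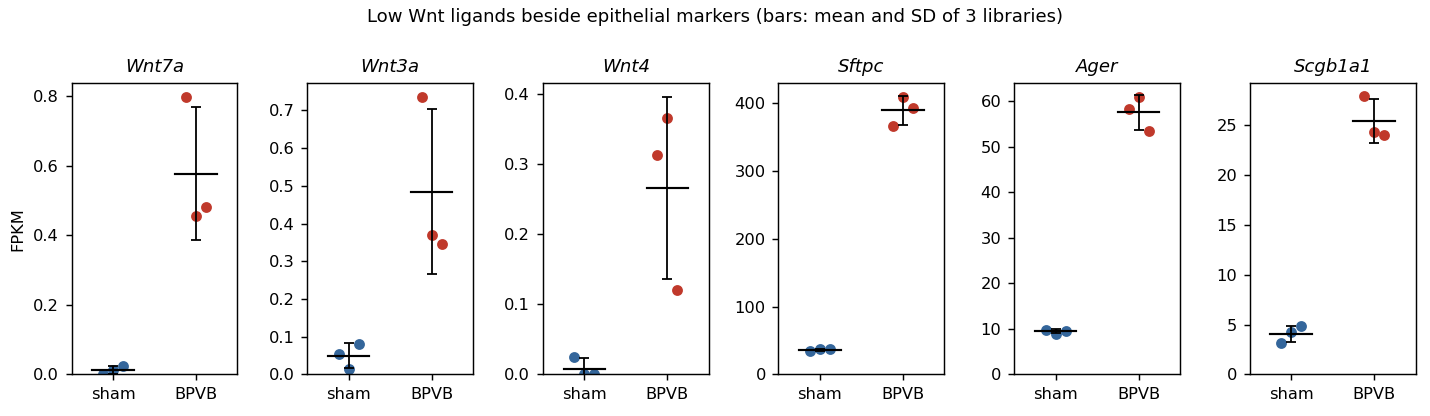
FPKM (vertical axes, 1 scale per gene, starting at 0) of Wnt7a, Wnt3a and Wnt4 beside the alveolar type 2 marker Sftpc, the alveolar type 1 marker Ager and the airway marker Scgb1a1 in the sham (blue) and BPVB (red) libraries, with the mean and SD of 3 libraries as bars. For these 6 genes the BPVB points lie above the sham points. The sum of the airway list was lower in the BPVB group through Tppp3 (85.3 against 135 FPKM). The Wnt ligands stay under 0.8 FPKM where Sftpc averages 390 in the BPVB group.

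The other called ligands were Wnt2b, Wnt9b and Wnt5a. Wnt2b, a lung mesenchyme ligand that acts through beta-catenin, had a log2 fold change of 0.89 (adjusted p = 0.011). Wnt5a, the main ligand of ROR2, had one of 0.39 (adjusted p = 0.029) and Wnt9b one of 0.55 (adjusted p = 0.022). Wnt9b was not called without BPVB replicate 1, BPVB replicate 3, sham replicate 1 or sham replicate 2 (adjusted p 0.054 to 0.074). Wnt5a was called without BPVB replicate 1, lost the call without any other replicate (adjusted p 0.053 to 0.10) and was not called after quantile normalization (log2 fold change 0.30, adjusted p = 0.081). The 5 tested ligands that were not called, Wnt9a, Wnt2, Wnt11, Wnt10b and Wnt6, had log2 fold changes of -0.07 to 0.24. Wnt1, Wnt10a, Wnt16 and Wnt7b stayed under a mean FPKM of 0.1 and were not tested.

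R-spondins bind LGR receptors and keep the ubiquitin ligases ZNRF3 and RNF43 away from Frizzled receptors. All 4 were tested, 1 was higher (25%, against 17.2% of all tested genes) and 0 were lower. The median log2 fold change of the R-spondins was -0.32. The summed FPKM of 1.95, 1.34 and 2.44 in the BPVB group overlapped that of the sham group, at 2.15, 2.76 and 2.13. The FPKM of Rspo3, an R-spondin of endothelial and mesenchymal cells, was 0.569, 0.398 and 0.672 in BPVB rats, compared with 0.168, 0 and 0.369 in sham rats. The groups did not overlap, and the log2 fold change was 0.65 (SE 0.22, adjusted p = 0.048). This call rested on 73 fragments in all and was lost without BPVB replicate 1, 2 or 3 or sham replicate 1 (adjusted p 0.053 to 0.14), and without sham replicate 2, the library at 0, the log2 fold change was 0.45 (adjusted p = 0.14). Under 5 of the 7 other settings in which Rspo3 was tested it was not called, at an adjusted p of 0.052 to 0.081.

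Rspo1, Rspo2 and Rspo4 had log2 fold changes of -0.42 to -0.28 and were not called. For Rspo2 and Rspo4 the FPKM of every BPVB library was nevertheless below that of every sham library. Rspo4 had 5, 2 and 23 fragments in BPVB rats, compared with 20, 33 and 31 in sham rats. It was called lower when all genes with a mean FPKM above 0 were tested (adjusted p = 0.047) and in limma-voom on fragments (adjusted p = 0.022).

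Among the 10 Frizzled receptors, 9 were tested. Of these, 3 were higher (33.3%, against 17.2% of all tested genes), 2 were lower (22.2% against 14.3%) and 4 were not called. The summed FPKM of the 10 receptors was 109, 108 and 111 in BPVB rats, compared with 99.3, 99 and 99.6 in sham rats. The ratio was 1.1 with no overlap. Fzd4, the Frizzled receptor of vascular endothelium that also binds norrin, was the most abundant in the sham group. Its FPKM was 30.8, 30.1 and 29.4 in BPVB rats, compared with 33, 34.3 and 33.3 in sham rats. The level fell by 0.15 on the log2 scale (SE 0.041, adjusted p = 0.02) with no overlap, and was not called without BPVB replicate 3 (adjusted p = 0.064) or sham replicate 2 (adjusted p = 0.067). Of the 7 endothelial markers 3 were lower and 0 higher, with a summed FPKM of 1020 to 1030 in the BPVB group and 1110 to 1120 in the sham group, and their part in the Fzd4 level was not tested.

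Fzd1, a receptor of the beta-catenin branch, had the smallest adjusted p of the Frizzled receptors. Its FPKM was 29.6, 29.9 and 31.2 in BPVB rats, compared with 22.5, 22.5 and 23.3 in sham rats. All BPVB libraries lay above the sham libraries, with a log2 fold change of 0.40 (SE 0.044, adjusted p = 1.6e-04). In the BPVB group the levels of Fzd1 and Fzd4 differed by less than their spread, with means of 30.2 ± 0.84 and 30.1 ± 0.68 FPKM, whereas in the sham group Fzd4 had 33.5 ± 0.65 and Fzd1 22.7 ± 0.47 (SD, n = 3). The share of the Frizzled sum held by Fzd4 was 33.8% ± 0.75 in the sham group and 27.5% ± 0.83 in the BPVB group.

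Fzd7 and Fzd2, which are close relatives of Fzd1, were also higher. The log2 fold change was 0.83 for Fzd7 (adjusted p = 0.0011) and 0.65 for Fzd2 (adjusted p = 4.1e-04), and the groups did not overlap for either gene. The low receptor Fzd9 fell by 0.59 on the log2 scale (adjusted p = 0.035). Among the fits that lost this call were those without BPVB replicate 1, 2 or 3 or sham replicate 2 or 3 (adjusted p 0.055 to 0.11) and limma-voom on fragments (log2 fold change -1.19, adjusted p = 0.077).

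Fzd6, a receptor of planar cell polarity, was among the 10 most abundant members and did not pass the threshold. Its FPKM was 16.5, 15.8 and 16 in BPVB rats, compared with 17.8, 15.4 and 16.4 in sham rats. The groups overlapped, with a log2 fold change of -0.03 (SE 0.063, adjusted p = 0.71). The other uncalled receptors were Fzd3, Fzd5 and Fzd8, with log2 fold changes of -0.15 to 0.36. Fzd8 was below the sham group in every BPVB library (10.4 to 10.7 against 11.4 to 12.3 FPKM) and was called lower after rescaling by the median of ratios (adjusted p = 0.044), after quantile normalization (0.04) and in limma-voom (0.022). Fzd10 was not tested.

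The co-receptors LRP5 and LRP6 pair with Frizzled receptors in the beta-catenin branch. The FPKM of Lrp6 was 20.8, 20.3 and 20.7 in BPVB rats, compared with 16.9, 15.8 and 16 in sham rats. Every BPVB library was above every sham library, and the log2 fold change was 0.34 (SE 0.05, adjusted p = 9.2e-04). The FPKM of Lrp5 was 26.6, 25.7 and 25.7 against 24, 25 and 24. Its groups did not overlap either, but the log2 fold change of 0.09 did not pass the threshold (SE 0.044, adjusted p = 0.14). Ror2, a receptor tyrosine kinase for Wnt5a, had a log2 fold change of 0.34 that was not called (adjusted p = 0.09), although it was called in limma-voom (adjusted p = 0.042) and without sham replicate 1 (adjusted p = 0.045).

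**Figure D3:**
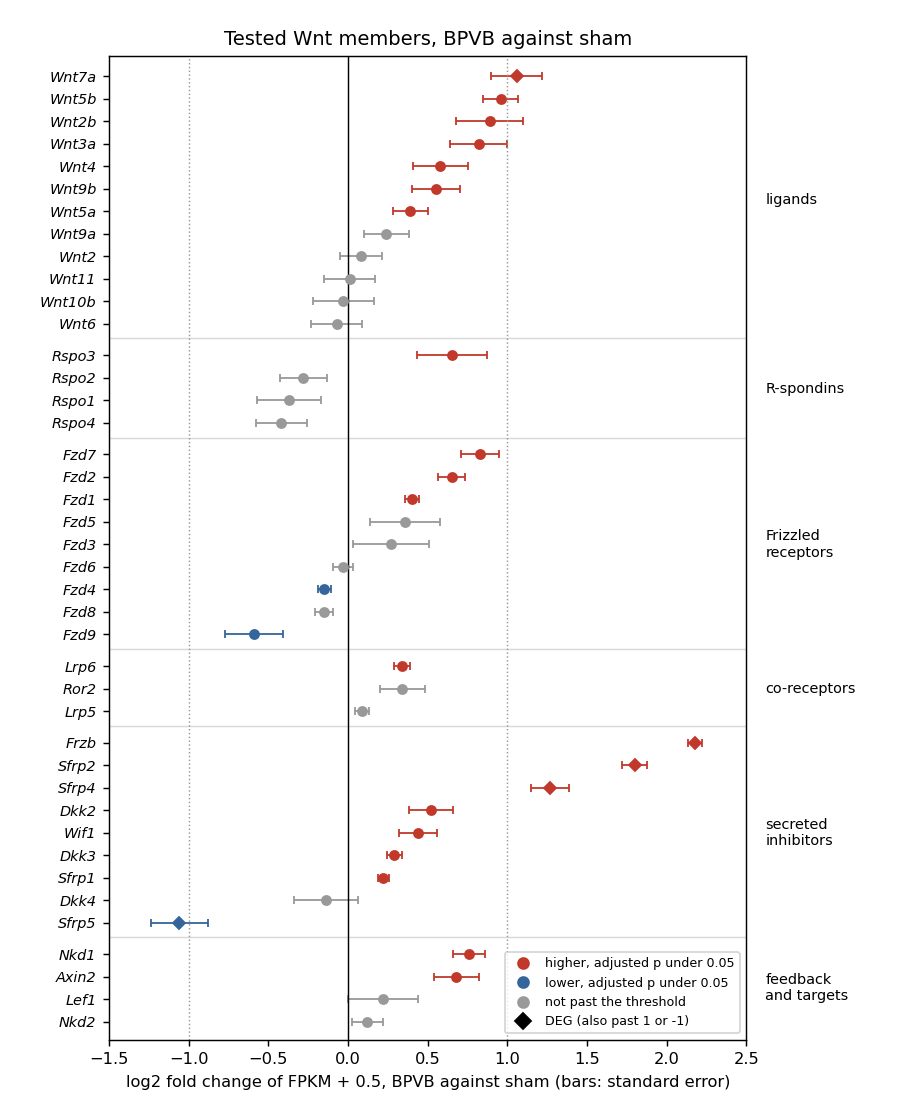
Log2 fold change of FPKM + 0.5 (horizontal axis, BPVB against sham) of the 41 tested members by role, with standard errors as bars and dotted lines at 1 and -1, in red where higher, blue where lower and grey where the adjusted p was 0.05 or above. Diamonds mark the 5 DEGs, of which Frzb lies farthest to the right at 2.18 and Sfrp5 farthest to the left at -1.06.

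On the scale of log2(FPKM + 0.5), the 3 largest increases among the tested members were those of secreted inhibitors, Frzb, Sfrp2 and Sfrp4. Of the 11 inhibitors 9 were tested. Of these, 7 were higher (77.8%, against 17.2% of all tested genes), 1 was lower (11.1% against 14.3%) and 1 was not called. The median log2 fold change of the 9 was 0.44. The summed FPKM of the 11 inhibitors was 258, 260 and 259 in BPVB rats, compared with 140, 134 and 137 in sham rats. The means of 259 ± 1 and 137 ± 3.2 (SD, n = 3) differed 1.89 times with no overlap. The 5 SFRP genes alone summed to 184, 189 and 183 against 77.6, 77.3 and 78.6 FPKM, a ratio of 2.38.

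Frzb encodes SFRP3, an inhibitor that holds Wnt proteins through a Frizzled-like cysteine-rich domain. Its FPKM was 101, 105 and 101 in BPVB rats, compared with 23.3, 22.2 and 21.2 in sham rats. The groups lay far apart relative to their spread, with means of 103 ± 2.3 and 22.2 ± 1 (SD, n = 3), a ratio of 4.62. The log2 fold change was 2.18 (SE 0.044, adjusted p = 4.8e-09) and ranged from 2.15 to 2.22 under all alternative settings and left-out replicates. Frzb thereby moved from the sixth place among the 48 members in the sham group to the highest level in the BPVB group. Its sham level lay within its spread of that of Fzd1 (22.7 ± 0.47), the next above it. The share of Frzb in the summed inhibitor FPKM was 39.6% ± 0.76 against 16.2% ± 0.62.

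Sfrp2, a related inhibitor of mesenchymal cells, had an FPKM of 26.4, 27.9 and 27.6 in BPVB rats, compared with 6.62, 7.62 and 8.3 in sham rats. Again no library of one group entered the range of the other. The level rose 3.63 times, with a log2 fold change of 1.80 (SE 0.08, adjusted p = 7.1e-07). Sfrp4, a further family member, had an FPKM of 3.18, 2.86 and 3.03 against 1.14, 0.866 and 0.891. It was higher in all 3 BPVB libraries, 3.13 times on average, with a log2 fold change of 1.27 (SE 0.12, adjusted p = 7.5e-05). Nme8, which overlaps Sfrp4 in the annotation, had 0 or 1 fragment in every library.

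Sfrp5 went in the opposite direction within the same family. Its FPKM was 1.81, 1.02 and 1.4 in BPVB rats, compared with 2.79, 3.47 and 4.14 in sham rats. All BPVB libraries were below the sham libraries, and the level fell by 1.06 on the log2 scale (SE 0.18, adjusted p = 0.0022). It was called in every alternative, but leaving out BPVB replicate 2 gave a log2 fold change of -0.91, leaving out sham replicate 3 gave -0.94 and a pseudocount of 1 gave -0.89, values that are not past the DEG threshold. Among the marker lists, 5 of 6 neuron genes were lower and 0 higher (summed FPKM 7.8 to 8.86 against 16.1 to 17.8, with Phox2a and Chrna3 at 0 in the BPVB group). Of 5 mesothelial genes 3 were lower and 1, Krt19, was higher (4.73 against 2.14 FPKM), with overlapping sums (5.9 to 7.64 against 6.24 to 8.06). More genes were also lower than higher in the atrial (6 and 2), smooth muscle (4 and 1) and endothelial (3 and 0) lists. The part of these lists in the Sfrp5 level was not tested.

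The 2 inhibitors that led in the sham group changed less. The FPKM of Dkk3, a divergent DKK protein, was 64, 63.1 and 66.2 in BPVB rats, compared with 56.1, 50.8 and 51 in sham rats. For Sfrp1, which binds Wnt proteins as Frzb does, the FPKM was 50.8, 51.7 and 50.5 against 43.8, 43.1 and 44.1. Neither gene showed overlap between the groups, and the log2 fold change was 0.29 for Dkk3 (SE 0.046, adjusted p = 0.0015) and 0.22 for Sfrp1 (SE 0.034, adjusted p = 0.0012). Their shares of the summed inhibitor FPKM were 38.4% ± 1.4 and 31.9% ± 0.59 in the sham group and 24.9% ± 0.67 and 19.7% ± 0.18 in the BPVB group.

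**Figure D4:**
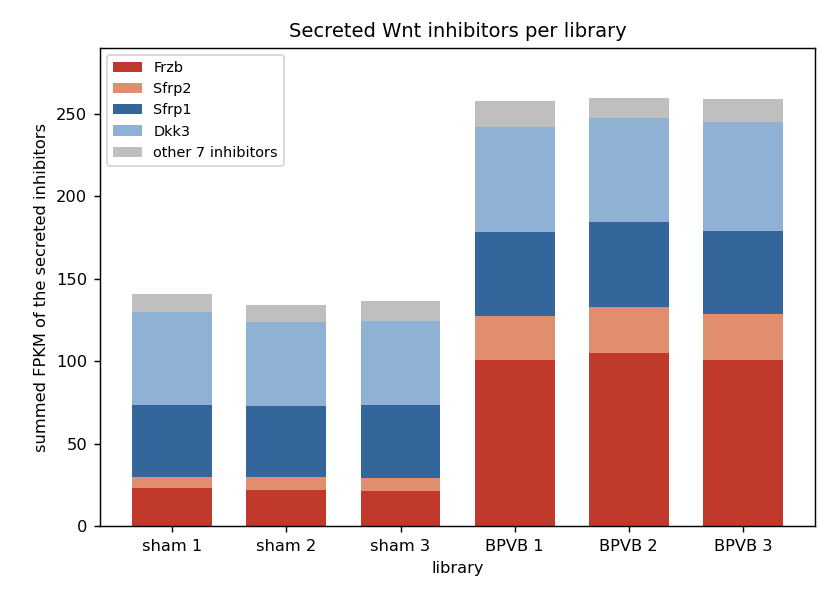
Summed FPKM of the 11 secreted inhibitors (vertical axis, from 0) in each of the 6 libraries, as stacked bars of Frzb, Sfrp2, Sfrp1, Dkk3 and the other 7 inhibitors. The bars reach 134 to 140 in the sham libraries and 258 to 260 in the BPVB libraries, with Frzb at 101 to 105 in the latter.

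Wif1, which binds Wnt proteins directly, had a log2 fold change of 0.44 (adjusted p = 0.023). Dkk2, a ligand of LRP5 and LRP6, had one of 0.52 (adjusted p = 0.025). Wif1 was not called without BPVB replicate 1, BPVB replicate 3, sham replicate 1 or sham replicate 2 (adjusted p 0.055 to 0.077), and Dkk2 was not called without BPVB replicate 1, BPVB replicate 3, sham replicate 1 or sham replicate 3 (adjusted p 0.064 to 0.081). Dkk4 was not called, at -0.14. Dkk1, the best known LRP6 antagonist, had 1 fragment in 1 of the 6 libraries, and Notum, an enzyme that removes the lipid of Wnt proteins, had 23 fragments in all, so neither was tested. The ratio of summed inhibitor to summed ligand FPKM was 14.5, 14.4 and 15.1 in BPVB rats, compared with 13.3, 12.7 and 12.1 in sham rats, with no overlap, at means of 14.7 ± 0.4 and 12.7 ± 0.61 (SD, n = 3). The ratio counts the divergent Dkk3 as an inhibitor, with 38.4% of the inhibitor sum in the sham group and 24.9% in the BPVB group. It depends on that choice.

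Fibroblast markers are given beside the inhibitors because several of these genes are known from mesenchymal cells. Of the 8 fibroblast markers 4 were higher, 2 were lower and 2 were not called, and their summed FPKM was 4060 in each BPVB library and 3570 to 3600 in the sham libraries, a ratio of 1.13. The corresponding ratio of the 5 SFRP genes was 2.38. The part of the fibroblast markers in the inhibitor levels was not tested.

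The promoters of the most increased inhibitors are shown so that their composition can be compared with those of the Wnt feedback genes below. RefSeq promoters (build GRCr8, 250 bases before to 50 bases after the gene start) were matched for 32 of the 48 members. The window of Frzb is chr3:85772047-85772346 on the minus strand, with 45.3% G and C and 4 CG pairs. That of Sfrp2 is chr2:171387286-171387585 on the plus strand, with 65% and 21. The median was 66.8% and 26.5 CG pairs over the 32 members and 52.3% and 7 over all 27457 promoters. Neither window holds CTTTGAT or CTTTGAA, the T-cell factor/LEF letters, on either strand, and so neither sequence carries capitals.
Frzb: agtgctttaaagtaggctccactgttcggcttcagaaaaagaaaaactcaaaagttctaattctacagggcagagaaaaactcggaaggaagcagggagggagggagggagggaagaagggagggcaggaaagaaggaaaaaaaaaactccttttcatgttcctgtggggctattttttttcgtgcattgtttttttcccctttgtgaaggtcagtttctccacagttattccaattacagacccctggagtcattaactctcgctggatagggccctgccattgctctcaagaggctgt
Sfrp2: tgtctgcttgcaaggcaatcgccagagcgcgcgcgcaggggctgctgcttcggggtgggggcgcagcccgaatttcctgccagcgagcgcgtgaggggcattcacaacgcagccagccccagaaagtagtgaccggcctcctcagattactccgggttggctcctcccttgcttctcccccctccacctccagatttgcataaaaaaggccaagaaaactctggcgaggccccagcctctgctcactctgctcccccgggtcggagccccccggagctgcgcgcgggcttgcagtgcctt

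Feedback and target genes report on beta-catenin signaling within the cell. All 4 were tested, 2 were higher (50%, against 17.2% of all tested genes) and 2 were not called. Their median log2 fold change was 0.45. Nkd1, an intracellular inhibitor that binds Dishevelled and is induced by the pathway, had an FPKM of 15.4, 15.6 and 16.6 in BPVB rats, compared with 7.78, 10.4 and 9.42 in sham rats. The groups did not overlap, and the level rose 1.72 times, with a log2 fold change of 0.76 (SE 0.098, adjusted p = 4.4e-04).

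Axin2, a scaffold of the beta-catenin destruction complex and a widely used target gene, had an FPKM of 2, 2.57 and 1.92 against 1.27, 0.952 and 1.23. Its BPVB libraries were all above its sham libraries, with a log2 fold change of 0.68 (SE 0.14, adjusted p = 0.0063). Nkd2, a paralog of Nkd1, and Lef1, a transcription factor of the pathway, had log2 fold changes of 0.12 and 0.22 that were not called, and their groups overlapped. For Lef1 sham replicate 2 had 2 fragments where the other 5 libraries had 20 to 37, and without it the log2 fold change was -0.02 (adjusted p = 0.96).

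The promoters of Axin2 and Nkd1 are shown because these called feedback genes hold a T-cell factor/LEF match, printed in capitals. CTTTGAT on either strand occurs in 2 of the 32 member promoters, those of Axin2 and Nkd1, and in 3.62% of all promoters. CTTTGAA occurs in 3 of 32, those of Axin2, Dkk1 and Fzd7, and in 5.31% of all. The 2 motifs share their first 6 letters and cannot match at the same position. In Axin2 (chr10:94398535-94398834, plus strand, 45.7% G and C, 5 CG pairs) CTTTGAT begins 132 bases and CTTTGAA 232 bases before the start. In Nkd1 (chr19:34722797-34723096, minus strand, 79.3%, 44 CG pairs) CTTTGAT begins 141 bases before the start. A match is a description of letters and not evidence of binding.
Axin2: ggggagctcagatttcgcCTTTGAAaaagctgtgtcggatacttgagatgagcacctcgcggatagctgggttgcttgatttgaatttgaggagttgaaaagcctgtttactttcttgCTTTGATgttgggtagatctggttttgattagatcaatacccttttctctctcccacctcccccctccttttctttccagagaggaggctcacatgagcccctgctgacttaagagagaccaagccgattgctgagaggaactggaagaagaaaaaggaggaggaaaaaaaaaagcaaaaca
Nkd1: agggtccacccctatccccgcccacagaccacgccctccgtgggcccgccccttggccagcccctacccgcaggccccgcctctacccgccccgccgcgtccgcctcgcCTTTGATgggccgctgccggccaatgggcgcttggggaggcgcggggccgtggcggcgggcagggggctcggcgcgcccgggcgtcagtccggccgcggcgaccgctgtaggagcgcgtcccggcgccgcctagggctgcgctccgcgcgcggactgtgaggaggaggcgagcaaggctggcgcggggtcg

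Other genes of the pathway outside the rule were counted from a list of 56, of which 55 were in the table and 52 were tested. Of these, 16 were higher, 6 were lower and 30 were not called, with a median log2 fold change of 0.12. Higher genes were 30.8% of the 52 tested genes of the list and 17.2% of all tested genes, and lower genes 11.5% against 14.3%. Among the called genes, the largest increases were those of Lgr6, an R-spondin receptor (0.72, adjusted p = 1.1e-04), Pygo1, a nuclear partner of beta-catenin (0.66, adjusted p = 0.022), and Btrc, which marks beta-catenin for degradation (0.46, adjusted p = 0.0097). Lgr4, an R-spondin receptor, Bcl9l, a beta-catenin cofactor, and Myc, a target gene, followed with 0.43 each (adjusted p = 0.0012, 0.0023 and 0.023). The number of higher genes was 10 without BPVB replicate 1 (19.2% of the tested genes of the list, where 14.6% of all genes were higher) and 8 without sham replicate 1 (15.4% against 14.4%).

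Sostdc1, a secreted inhibitor of Wnt and BMP signaling, was the DEG of this list, with 0.719 ± 0.16 FPKM in the BPVB group and 2.5 ± 0.24 in the sham group (SD, n = 3). Its sham mean was 3.47 times its BPVB mean (adjusted p = 1.5e-04, lower in all 3 BPVB libraries). The next falls among the called genes were those of Tle1, a corepressor of T-cell factors (-0.46, adjusted p = 0.0051), Tpbg, a membrane inhibitor (-0.40, adjusted p = 0.035), and Cby1, a beta-catenin antagonist (-0.35, adjusted p = 0.0048). Ctnnb1, the beta-catenin gene, had 148 ± 2.7 FPKM in the BPVB group and 160 ± 2.5 in the sham group (log2 fold change -0.11, adjusted p = 0.014), whereas beta-catenin activity is set mainly by the stability of the protein, which was not measured.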

How the data were processed

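Pulmonary vein RNA of 6 rats was sequenced, and groups were taken from the sample labels. The authors deposited 1 FPKM value per gene and library. The study's methods name fastp, HISAT and HTSeq-count, whereas the submitters' processing notes list HISAT2 2.0.5, StringTie 1.3.3b, featureCounts 1.5.0-p3 and DESeq2 1.20.0. The genome build, annotation and strand setting are not given in the sources used here. The number of columns of per-sample values left unused was 0. The methods select 3 rats per group, so each library was 1 replicate.

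Log2(FPKM + 0.5) was fitted with limma 3.58.1 in R 4.3.3 (trend on mean expression, two-sided, Benjamini-Hochberg adjustment over the 15150 genes whose mean FPKM reached 0.1). DESeq2 was not run here. Fragments were recovered as whole numbers from the steps of the FPKM for all 17833 genes (tolerance 1e-06), of which 13486 had at least 50 fragments in a library, and used for limma-voom and for counting intervals. On simulated data with 200 genes changed 4-fold, 193 were called, 191 as DEGs, and 12 of the unchanged genes were called. The changed genes had a mean FPKM of at least 1, and all genes shared 1 ratio of variance to mean (4.99). The simulation therefore gives no rate of detection for smaller changes or for genes under 1 FPKM. Without strand information, reads of a gene and of an antisense partner cannot be told apart, and 12 members overlap another gene in RefSeq GRCr8, 4 of them a gene of the table (Nme8 with Sfrp4, Fbxl14 with Wnt5b, and Tuba1c with Wnt1 and Wnt10b). Tuba1c was called higher (log2 fold change 0.22, adjusted p = 0.0098).

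Values in every library are given for DEGs, the 10 members with the highest mean FPKM and the called member with the smallest adjusted p of each role, and log2 fold changes for other called members. Of the other pathway genes, the 4 largest rises and falls among those called are named, with 3 rises tied at the last place. Members given further values after these were seen are Wnt3a, Wnt4, Wnt9a, Rspo4, Fzd8, Axin2 and Lef1, and group means are given for the most abundant ligands. Members and lists were chosen with earlier results of these data known. Alternatives were pseudocounts of 1 and 0.1, other expression minimums, median-of-ratios and quantile scaling, a replicate block, limma-voom and leaving out each library.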

Additional observations from a re-analysis of the deposited data

How the results depend on the processing

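Of the 24 called members, 16 were called under all 8 alternative settings and all 6 left-out libraries in which they were tested, and 8 (Dkk2, Fzd4, Fzd9, Rspo3, Wif1, Wnt4, Wnt5a and Wnt9b) were lost in at least 1 of them. None of the 24 changed direction. The number of higher DEGs was 8 with a pseudocount of 0.1 and 8 in limma-voom (4.03% and 4.36% of all genes, against 2.24% in the reported fit). It was 3 with a pseudocount of 1, with quantile normalization or with a minimum of 1 FPKM (Frzb, Sfrp2 and Sfrp4 in each, with 1.5%, 1.95% and 2.3% of all genes). The number of lower DEGs was 0 with a pseudocount of 1 (Sfrp5 at -0.89) and 2 in limma-voom (Sfrp5 and Rspo4). Lower DEGs were 0.647% and 2.48% of all genes in these 2 fits, against 1.03% in the reported fit. Wnt7a was not tested at a minimum of 1 FPKM. Leaving out each library gave 16 to 18 higher and 1 to 3 lower members, 4 to 5 higher and 0 to 1 lower DEGs, and 8 to 14 higher and 4 to 6 lower genes among the other pathway genes. In these fits 14.3% to 14.7% of all genes were higher and 11.6% to 12.6% lower, against 17.2% and 14.3% with all libraries, and higher and lower DEGs were 2.26% to 2.36% and 1.01% to 1.16%. The count of lower members was 1 without BPVB replicate 3 or sham replicate 2, and the lower DEG was lost without BPVB replicate 2 or sham replicate 3.

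Changes of sign were seen in members that were not called. Wnt11 was at -0.01 with the median of ratios, -0.10 with quantile normalization, -0.0018 in limma-voom and, with single libraries left out, between -0.12 and 0.12 (below 0 without BPVB replicate 2, sham replicate 2 or sham replicate 3), and Wnt2 was at -0.03 with quantile normalization. With single libraries left out, Wnt10b ranged from -0.13 to 0.11 (above 0 without BPVB replicate 3 or sham replicate 1), Wnt6 from -0.14 to 0.05 (above 0 without BPVB replicate 2), Fzd6 from -0.08 to 0.02 (above 0 without sham replicate 1) and Lef1 from -0.02 to 0.39 (below 0 without sham replicate 2). The cause was not tested.

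The titles number the libraries 1 to 3 in both groups without saying that a number marks a shared litter or day. Deviations from the group means correlated at 0.0255, 0.0136 and 0.0153 between libraries of the same number, and each library correlated best with its own number. All the correlations between libraries of the 2 groups were close to 0 (-0.0216 to 0.0255). Whether same-numbered libraries were paired was not tested. With the replicate block 21 members were higher and 2 lower, with 4 higher and 1 lower DEGs and 15 higher and 5 lower other pathway genes, where 16.3% of all genes were higher and 13.7% lower and 2.24% and 1.04% were higher and lower DEGs, and Fzd9 had an adjusted p of 0.065.

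With 3 rats per group, differences of low genes are known only roughly. Wnt4, Rspo3 and Wnt10b rest on 37, 73 and 41 fragments in all, and 7 members, with 1 to 33 fragments in all, were under the minimum of 0.1 FPKM, although all 48 were tested when every gene above 0 was included.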

Other observations

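The table also allowed neighbouring members to be compared. In RefSeq GRCr8, 3 pairs of members are next to each other among the protein-coding genes. Wnt3a, which was higher with 123 fragments in the BPVB group and 11 in the sham group, lies beside Wnt9a, whose FPKM was 2.48, 2.39 and 2.34 in BPVB rats, compared with 1.48, 2.3 and 2.15 in sham rats and which was not called (log2 fold change 0.24, adjusted p = 0.23). Wnt6 lies beside Wnt10a and Wnt10b beside Wnt1, and none of these 4 genes was called, with Wnt10a at 5 and Wnt1 at 2 fragments in all.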
